A study of Mus musculus with 4 samples.

Results

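The 8 genes described here carry the making, the breakdown and the sensing of active vitamin D and the transport of phosphate in the kidney: Cyp27b1, Cyp24a1, Vdr, Kl, Slc34a1, Slc34a3, Slc20a2 and Xpr1. They were selected by name out of the 25636 genes listed in the count matrices, with earlier results of these same matrices known, among them the UMI counts of Cyp27b1 and the strain ratio of Slc34a1 in proximal tubule nuclei. A UMI is a tag that counts 1 captured RNA molecule. All 8 symbols matched 1 gene each. The values below are therefore a description of these libraries and no independent support for the choice.

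The study set MRL/lpr mice against C57BL/6 mice. The lpr allele disrupts Fas, which encodes a cell death receptor, and MRL/lpr mice develop a lupus-like disease with nephritis, whereas C57BL/6 is the strain used for comparison. All mice were female and untreated as far as the labels say. Nuclei of the kidney, described as cortex in the series' design, were profiled by droplet-based 3' RNA sequencing at 6 and at 10 weeks of age. There were 4 libraries, 1 for each strain and age, and the labels do not say how many mice each library holds. MRL mice with intact Fas were not among the groups, so the Fas mutation, the rest of the strain background and disease cannot be told apart, and neither can a group and its single library. Runs of 4 values below are in the order MRL/lpr 6 weeks, C57BL/6 6 weeks, MRL/lpr 10 weeks and C57BL/6 10 weeks. No test was run, since each group is 1 library, and the 95% intervals given in parentheses cover counting error only.

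The libraries had 9365, 10182, 9889 and 9638 barcodes and 7660682, 6847593, 6466973 and 6754055 UMIs. After filtering, 35693 nuclei remained, with medians of 693, 561, 625 and 569.5 UMIs per nucleus. Any pair of libraries shared between 112 and 143 barcode sequences. Nuclei were assigned by the raw UMIs of marker genes, none of which is among the 8, and the classes are called "like" for that reason. There were 5372, 3886, 5226 and 4072 proximal tubule-like nuclei, whose median UMIs were 797, 863, 752 and 829. They held a median of 12 or 13 UMIs of their own markers and of 0 or 1 of all other panels together. The distal convoluted tubule-like class held 647, 1126, 613 and 1148 nuclei. Endothelium-like nuclei, of which there were 304, 1191, 459 and 788 with medians of 365.5, 285, 289 and 290 UMIs, are used as the level that free RNA in the droplets gives for tubule genes.

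Proximal tubule cells make the active hormone, 1,25-dihydroxyvitamin D, from its circulating precursor with the mitochondrial enzyme encoded by Cyp27b1, and Cyp24a1 encodes the mitochondrial enzyme that inactivates both. The hormone acts through its nuclear receptor, encoded by Vdr, which is known to raise Cyp24a1 and, in distal tubules, genes of calcium transport. Phosphate is taken back from the filtrate across the brush border by the sodium-phosphate cotransporters encoded by Slc34a1 and Slc34a3, and parathyroid hormone and FGF23 remove these from the membrane. Kl encodes klotho, the partner that FGF receptors need to bind FGF23. Slc20a2 encodes a further sodium-phosphate cotransporter, and Xpr1 encodes the phosphate exporter of cells.

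The sequences just before the starts of 3 of these genes are shown because they belong to the genes found in proximal tubule-like nuclei and at free RNA level, or with almost no UMI, elsewhere: Cyp27b1, whose level set the libraries apart, and the pair of brush border transporters. Each is the stretch of 250 bases before the transcription start in the gene's own direction, read from RefSeq promoters of GRCm38.p6, in which 6 of the 8 genes were matched. Cyp27b1 lies on the plus strand with its stretch at chr10:127047996-127048245, Slc34a1 on the plus strand at chr13:55399398-55399647 and Slc34a3 on the minus strand at chr2:25234235-25234484. Capitals mark 3 kinds of motif searched on both strands: half-sites of the vitamin D receptor, the HNF1 half-site GTTAAT and the E-box, spelled CACGTG. The receptor half-site was searched as AGGTCA, then with other middle letters as AGTTCA, then with another first letter as GGGTCA, and finally with both changes as GGTTCA.
Cyp27b1: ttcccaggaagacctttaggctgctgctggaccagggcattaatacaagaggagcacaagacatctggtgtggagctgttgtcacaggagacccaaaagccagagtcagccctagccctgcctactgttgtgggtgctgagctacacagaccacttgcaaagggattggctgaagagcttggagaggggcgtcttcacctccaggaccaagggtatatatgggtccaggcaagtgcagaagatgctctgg
Slc34a1: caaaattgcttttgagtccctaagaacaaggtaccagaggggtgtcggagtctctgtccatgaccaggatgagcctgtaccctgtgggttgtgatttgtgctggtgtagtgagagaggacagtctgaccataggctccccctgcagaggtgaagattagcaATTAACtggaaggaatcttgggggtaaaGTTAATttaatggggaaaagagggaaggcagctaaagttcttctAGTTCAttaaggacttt
Slc34a3: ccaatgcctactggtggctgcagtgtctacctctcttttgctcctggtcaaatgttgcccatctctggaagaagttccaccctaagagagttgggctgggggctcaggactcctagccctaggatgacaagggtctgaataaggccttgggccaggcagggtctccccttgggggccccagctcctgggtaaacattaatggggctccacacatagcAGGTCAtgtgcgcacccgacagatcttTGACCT
Slc34a1 held the HNF1 half-site in both directions, ending 84 and 56 bases before the start, and AGTTCA ending 12 bases before it. Slc34a3 held AGGTCA in the gene's own direction ending 28 bases before the start and its reverse complement ending at the last base. These motifs did not overlap each other. Of 32841 promoters of the same length, 38.6% held a vitamin D receptor half-site, 6.43% an HNF1 half-site and 6.02% an E-box. A match of letters is a description and was not related to the levels below.

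Cyp27b1 RNA was almost confined to proximal tubule-like nuclei and was nearly absent from the MRL/lpr 6-week library. It was counted there as 3, 18, 111 and 105 UMIs, or 0.635, 5.12, 27.1 and 29.6 counts per 1000000 UMIs of the class (CPM). Both 10-week libraries were above both 6-week libraries, and the intervals of the 10-week libraries (22.3 to 32.6 and 24.2 to 35.8 CPM) did not overlap those of the 6-week libraries (0.131 to 1.85 and 3.04 to 8.10 CPM). At 10 over 6 weeks the ratio was 42.7 (14.2 to 210.3) in MRL/lpr and 5.77 (3.48 to 10.1) in C57BL/6. The large MRL/lpr ratio rests on 3 UMIs at 6 weeks. The strain ratio, MRL/lpr over C57BL/6, was 0.12 (0.02 to 0.42) at 6 weeks, against 0.92 (0.70 to 1.21) at 10 weeks, so only the 6-week pair stood apart beyond counting error.

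The enzyme's RNA was sparse even where it was present. A UMI of Cyp27b1 was seen in 3, 18, 98 and 96 proximal tubule-like nuclei, which is 0.0558% (0.0115 to 0.163), 0.463% (0.275 to 0.731), 1.88% (1.53 to 2.28) and 2.36% (1.91 to 2.87) of them. No endothelium-like nucleus of any library held one, which, at 3 counts, allows shares of up to 0.987, 0.252, 0.654 and 0.381%. For MRL/lpr 6 weeks that limit is above the proximal tubule-like share itself and sets no bound on where the RNA lay. After each nucleus was thinned to 500 UMIs, with shallower nuclei left out, the shares were 0.0392, 0.237, 1.19 and 1.48% of 5108, 3790, 4782 and 3781 nuclei.
The MRL/lpr 6-week library had the most UMIs in total and the lowest level of this gene. Its proximal tubule-like nuclei held a median of 797 UMIs, fewer than in C57BL/6 at 6 weeks (863) and at 10 weeks (829). Outside the proximal tubule-like class, the classes named here held 1 UMI in thick ascending limb-like and 2 in distal convoluted tubule-like nuclei, all of C57BL/6 10 weeks. Podocyte-like, intercalated cell-like and connecting tubule and principal cell-like nuclei held 0 in every library. Of the Cyp27b1 UMIs in all kept nuclei, 75.0, 100, 96.5 and 93.8% lay in the proximal tubule-like class. The 75.0% is 3 of 4 UMIs, too few to place the RNA in that library. Over all genes, the class held 4728018, 3512781, 4095639 and 3548375 of the 6590957, 5788410, 5820678 and 5816334 UMIs of kept nuclei. A single nucleus held at most 1, 1, 3 and 4 UMIs of Cyp27b1.

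**Figure D1:**
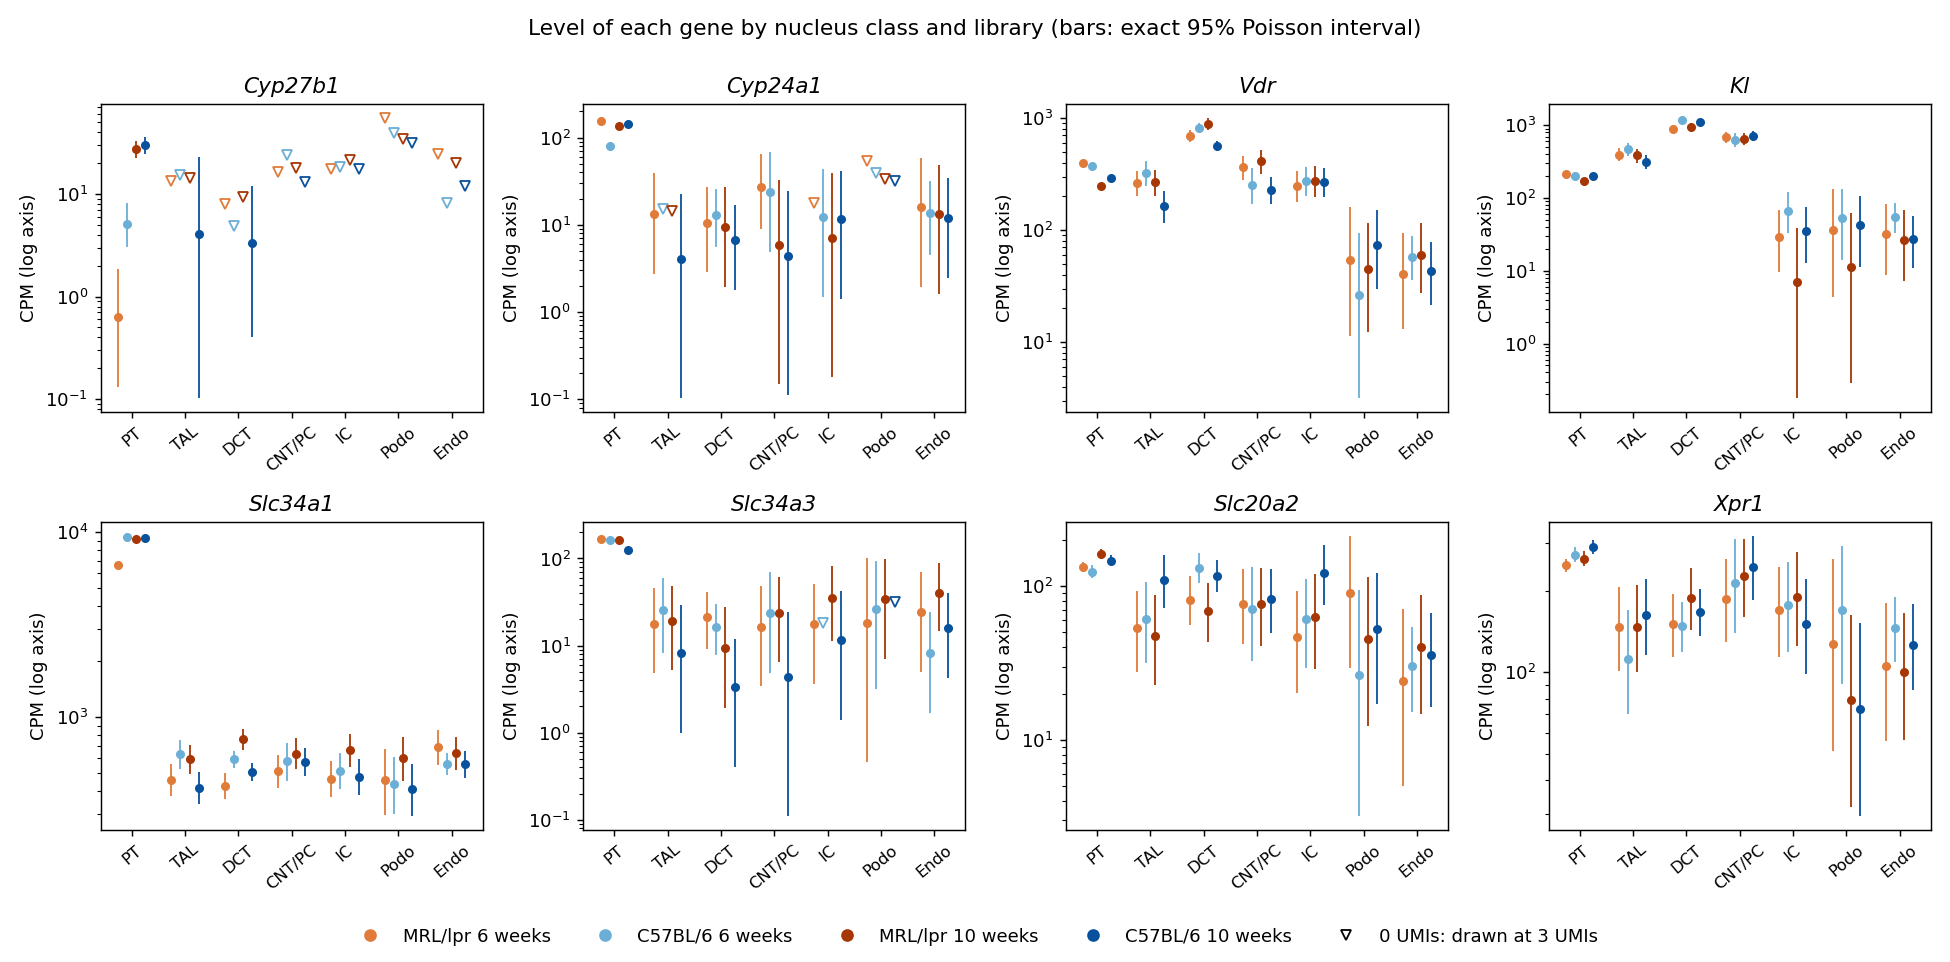
Level of each of the 8 genes in CPM on a log axis (limits differ between panels) in 7 nucleus classes, 1 point per library with its exact 95% Poisson interval: PT, proximal tubule-like; TAL, thick ascending limb-like; DCT, distal convoluted tubule-like; CNT/PC, connecting tubule and principal cell-like; IC, intercalated cell-like; Podo, podocyte-like; Endo, endothelium-like. An open triangle marks 0 UMIs and is drawn at the level of 3 UMIs; Cyp27b1 spans 0.635 to 29.6 CPM in PT, and Vdr and Kl are highest in DCT.

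Cyp24a1, the gene of the inactivating enzyme, lay in the same class. Its UMIs in proximal tubule-like nuclei were 737, 279, 563 and 512, or 155.9, 79.4, 137.5 and 144.3 CPM. C57BL/6 6 weeks was the low library and the other 3 lay between 137.5 and 155.9 CPM. The strain ratio at 6 weeks was 1.96 (1.71 to 2.26), against 0.95 (0.84 to 1.08) at 10 weeks. The ratio of 10 over 6 weeks was 0.88 (0.79 to 0.99) in MRL/lpr and 1.82 (1.57 to 2.11) in C57BL/6. At 6 weeks the strain order of Cyp24a1 was thus the reverse of that of Cyp27b1.

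A UMI of Cyp24a1 was seen in 9.85, 6.12, 8.02 and 8.74% of proximal tubule-like nuclei and in 0.658, 0.420, 0.436 and 0.381% of the shallower endothelium-like nuclei. Thinned to 500 UMIs, the proximal tubule-like shares were 6.26, 3.80, 5.46 and 5.85%. In CPM the endothelium-like level was between 8.20 and 17.3% of the proximal tubule-like level. The other tubule classes lay between 0 and 27.5 CPM, on at most 8 UMIs per class and library, and podocyte-like nuclei held 0 UMIs. Apart from proximal tubule-like nuclei, no neighbouring classes in the order of levels had separate ranges over the 4 libraries. Of the UMIs of this gene in kept nuclei, 87.7 to 91.8% lay in the proximal tubule-like class, whose part of the UMIs of all genes is given above.

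Both enzymes were mostly found in the early part of the proximal tubule. Proximal tubule-like nuclei were divided by the UMIs of 3 markers of the early (S1) segment, Slc5a2, Slc5a12 and Slc7a7. Those with 3 or more S1 UMIs made up 38.1% (36.8 to 39.4), 64.1% (62.6 to 65.6), 50.6% (49.3 to 52.0) and 55.5% (53.9 to 57.01) of the class, with the lowest share in MRL/lpr 6 weeks. They held a mean of 5.36, 8.39, 6.06 and 7.73 S1 UMIs per nucleus, fewer in both MRL/lpr libraries. A subset of the same name is therefore not alike in all libraries. In these nuclei Cyp27b1 was at 0.990, 6.65, 38.6 and 44.9 CPM, and in nuclei with no S1 UMI at 0, 2.40, 9.67 and 3.61 CPM. The ratio of the first to the second was 3.99 (2.06 to 8.62) in MRL/lpr 10 weeks and 12.4 (4.69 to 46.7) in C57BL/6 10 weeks, while in C57BL/6 6 weeks it was 2.77 (0.645 to 25.01).

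Within nuclei of 3 or more S1 UMIs, the ratio of 10 over 6 weeks of Cyp27b1 was 38.9 (10.4 to 326.9) in MRL/lpr, on 83 against 2 UMIs, and 6.75 (3.88 to 12.6) in C57BL/6. At 6 weeks the strain ratio was 0.15 (0.02 to 0.64). These are close to the ratios of the whole class, so the differences between libraries were as large within this subset.

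Cyp24a1 in nuclei with 3 or more S1 UMIs was at 234.6, 98.05, 181.2 and 222.6 CPM, against 57.8, 46.8, 51.2 and 16.2 CPM in nuclei with none. The ratio ran from 2.10 (1.49 to 3.03) in C57BL/6 6 weeks to 13.7 (8.57 to 23.3) in C57BL/6 10 weeks. Among nuclei with 3 or more S1 UMIs, MRL/lpr over C57BL/6 at 6 weeks was 2.39 (2.04 to 2.82), against 0.81 (0.71 to 0.93) at 10 weeks. Nuclei with no S1 UMI differed from this: MRL/lpr over C57BL/6 was 1.24 (0.84 to 1.85) at 6 weeks, against 3.15 (1.82 to 5.72) at 10 weeks, the latter on 53 against 18 UMIs. In C57BL/6 the ratio of 10 over 6 weeks was 2.27 (1.93 to 2.68) with 3 or more S1 UMIs and 0.35 (0.19 to 0.62) with none, and the difference itself was not tested.

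**Figure D2:**
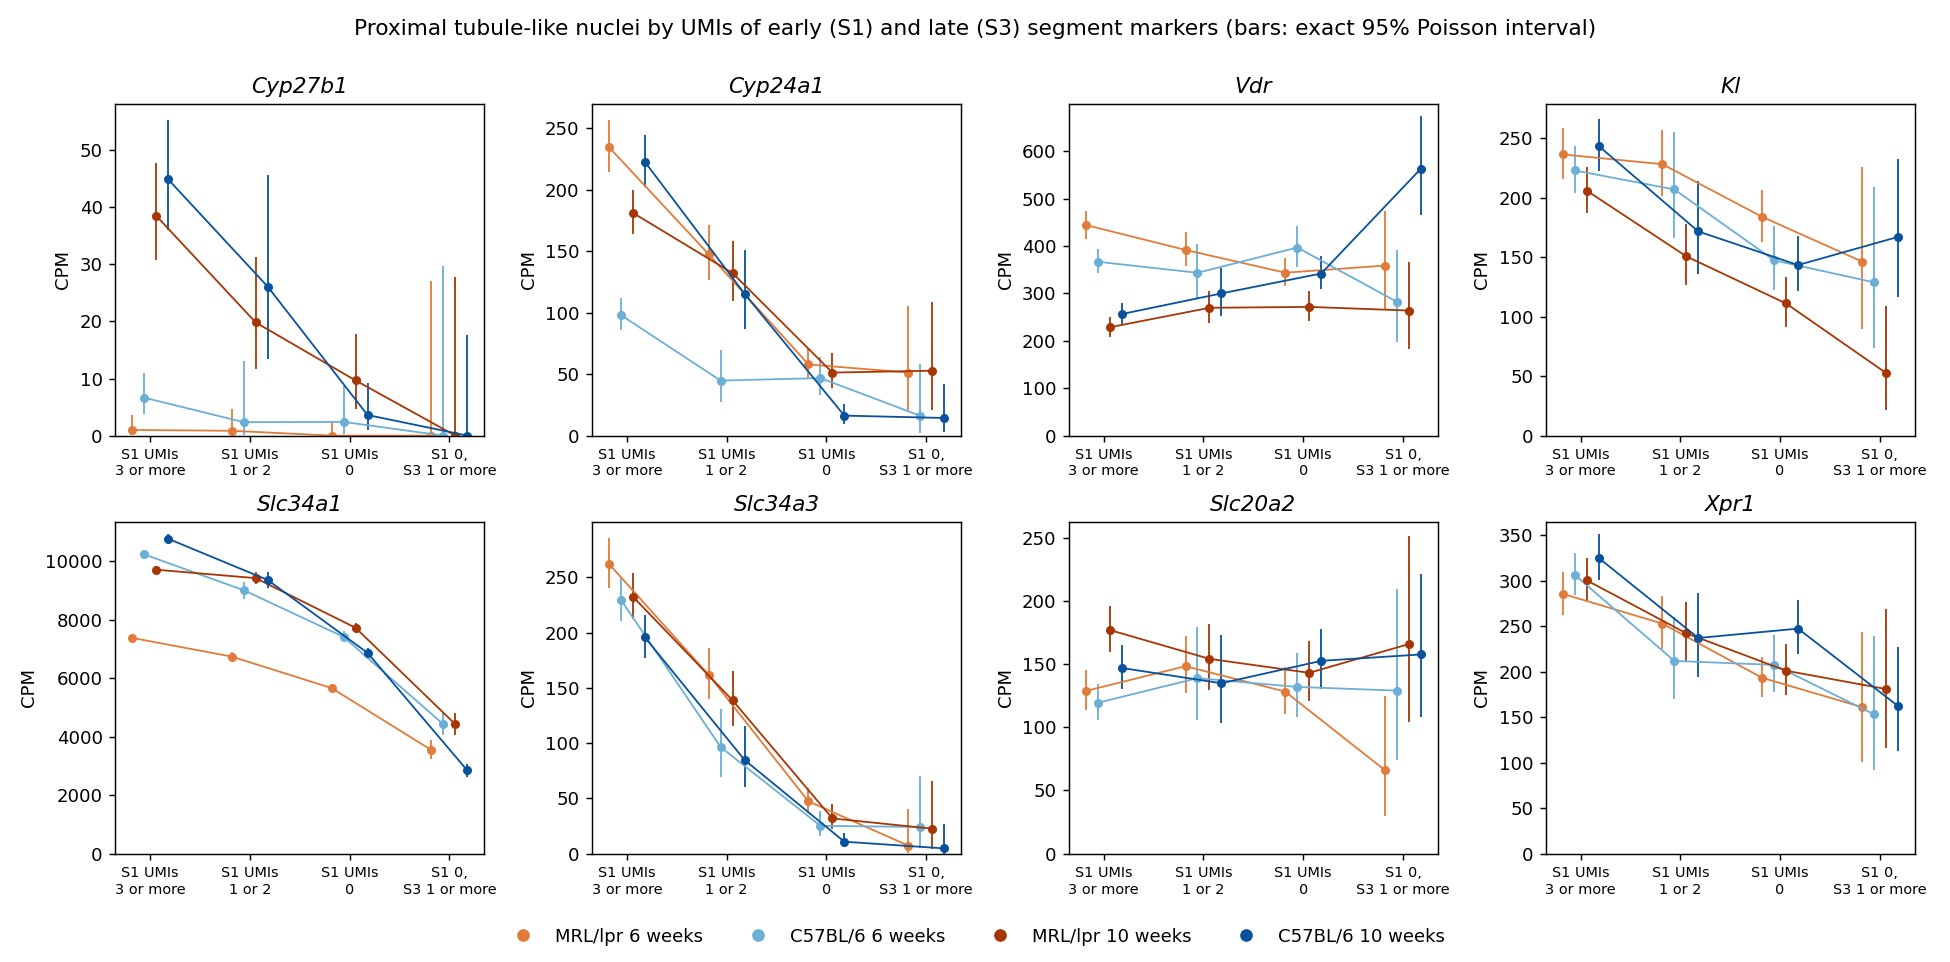
CPM of each gene in proximal tubule-like nuclei, divided along the x axis by UMIs of S1 markers and, in the last position, nuclei with no S1 UMI and at least 1 UMI of a late (S3) marker; colours are the 4 libraries and bars exact 95% Poisson intervals, with axis limits that differ between panels. Cyp27b1, Cyp24a1 and Slc34a3 are lower in nuclei with no S1 UMI than in those with 3 or more, while Slc20a2 lies between 119.3 and 177.0 CPM over the first 3 positions.

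Detection of Cyp27b1 and Cyp24a1 in the same or different nuclei was counted; with UMIs this sparse, most nuclei with one gene are bound to lack a UMI of the other. Over the 4 libraries, 28 proximal tubule-like nuclei held UMIs of both genes, 187 of Cyp27b1 only, 1514 of Cyp24a1 only and 16827 of neither. By library, 2 of 3, 1 of 18, 11 of 98 and 14 of 96 nuclei with Cyp27b1 also held Cyp24a1. That is 11.2% (5.74 to 19.2) in MRL/lpr 10 weeks and 14.6% (8.21 to 23.3) in C57BL/6 10 weeks, against 7.96% (7.23 to 8.73) and 8.60% (7.75 to 9.52) of nuclei without Cyp27b1. The intervals overlapped within each of the 4 libraries. Summed over the 4 libraries the shares were 13.0% (8.83 to 18.3) and 8.25% (7.86 to 8.66).

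Nuclei with Cyp27b1 were no deeper than the rest at 10 weeks, with medians of 746 against 752 UMIs in MRL/lpr and 819 against 829 in C57BL/6. In MRL/lpr 6 weeks the 3 nuclei with Cyp27b1 had a median of 2825 UMIs against 797 in the rest, and their share rests on 3 nuclei. Thinned to 500 UMIs, 13 of 124 nuclei with Cyp27b1 held Cyp24a1, or 10.5% (5.70 to 17.3), against 5.38% (5.05 to 5.73) of the rest, and these intervals overlap. When at least 2 UMIs of each gene were asked for, 0 of 18 nuclei with Cyp27b1 held Cyp24a1 (0 to 18.5%), against 2.16% of the rest. At a share that low, 18 nuclei are too few to show a difference in either direction. Since both genes were higher in early nuclei, shared position is contained in these shares, and its part was not tested.

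**Figure D3:**
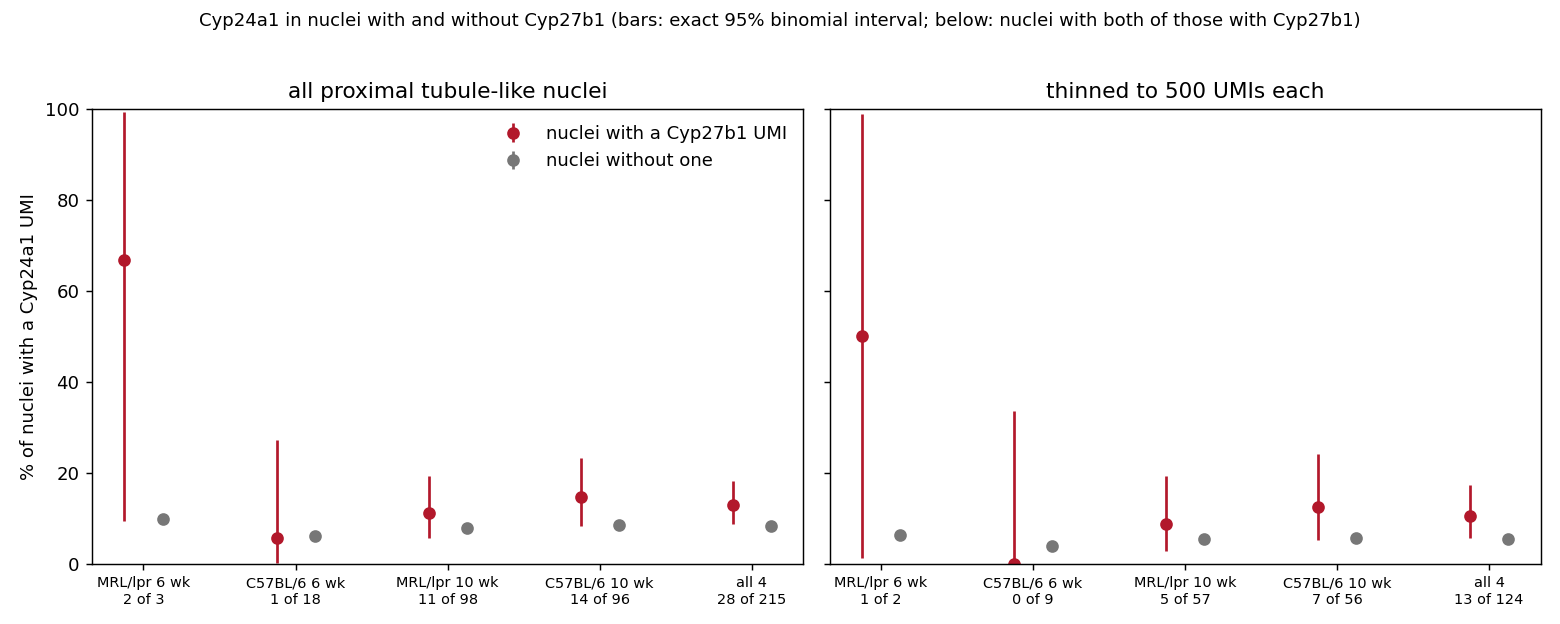
Percent of proximal tubule-like nuclei with a Cyp24a1 UMI among those with (red) and without (grey) a Cyp27b1 UMI, per library and summed, with exact 95% binomial intervals; numbers under the axis are nuclei with both out of nuclei with Cyp27b1, and the right panel is after thinning to 500 UMIs. The red and grey intervals overlap in each of the 4 libraries; in the sum over them they are apart before thinning and overlap after it.

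The receptor gene Vdr was highest in distal convoluted tubule-like nuclei, at 686.6, 819.3, 886.8 and 562.8 CPM. Proximal tubule-like nuclei followed at 398.9, 371.2, 248.6 and 288.9 CPM, and their range did not overlap that of the distal class. The ranges of the proximal tubule-like, connecting tubule and principal cell-like (226.8 to 409.6 CPM), intercalated cell-like (246.7 to 275.2 CPM) and thick ascending limb-like classes (162.7 to 320.7 CPM) overlapped each other in that order. Endothelium-like nuclei lay at 40.4 to 60.4 CPM and podocyte-like nuclei at 26.2 to 73.5 CPM.

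In proximal tubule-like nuclei Vdr was lower in both 10-week libraries than in both 6-week libraries. The ratio of 10 over 6 weeks was 0.62 (0.58 to 0.67) in MRL/lpr and 0.78 (0.72 to 0.85) in C57BL/6. A UMI was seen in 27.5, 27.2, 16.9 and 21.5% of these nuclei, against 1.40 to 1.74% of endothelium-like nuclei, and in 17.4, 17.1, 11.8 and 14.0% after thinning. The age order of Vdr in these nuclei was thus opposite to that of Cyp27b1 in both strains. Vdr was not higher in early nuclei of every library. Its ratio of nuclei with 3 or more S1 UMIs over nuclei with none was 1.29, 0.92, 0.84 and 0.75.

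The age order of Vdr in distal convoluted tubule-like nuclei was not the same in the 2 strains. The ratio of 10 over 6 weeks was 1.29 (1.09 to 1.53) in MRL/lpr, against 0.69 (0.60 to 0.79) in C57BL/6, and the difference itself was not tested. MRL/lpr over C57BL/6 at 6 weeks was 0.84 (0.72 to 0.98), against 1.58 (1.34 to 1.85) at 10 weeks. With only nuclei of at least 500 genes, the MRL/lpr age ratio came to a log2 value of 0.08 in place of 0.37. Thick ascending limb-like nuclei gave 1.64 (1.07 to 2.52) for MRL/lpr over C57BL/6 at 10 weeks, on 56 against 40 UMIs. Connecting tubule and principal cell-like nuclei gave 1.81 (1.24 to 2.64), on 69 against 52 UMIs.

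Of proximal tubule-like nuclei with Cyp24a1, 36.3, 33.6, 17.9 and 27.0% held Vdr, against 26.6, 26.8, 16.8 and 20.9% of those without, with intervals that overlapped in C57BL/6 6 weeks and MRL/lpr 10 weeks. Thinned to 500 UMIs and summed over the libraries, the shares were 18.4% (15.97 to 21.0) and 14.9% (14.3 to 15.4), but within each of the 4 libraries the thinned intervals overlapped. For nuclei with and without Cyp27b1 the thinned shares with Vdr were 7.02% (1.945 to 17.004) and 11.8% (10.9 to 12.8) in MRL/lpr 10 weeks and 14.3% (6.38 to 26.2) and 14.0% (12.9 to 15.2) in C57BL/6 10 weeks, which overlap. The 6-week libraries held 2 and 9 such nuclei with Cyp27b1.

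Kl, the gene of the FGF23 co-receptor, had a stepped order of levels over tubule classes, which is not their order along the nephron. It was at 882.1, 1166, 962.0 and 1101 CPM in distal convoluted tubule-like nuclei and at 687.4, 638.2, 659.0 and 710.8 CPM in connecting tubule and principal cell-like nuclei. Thick ascending limb-like nuclei held 396.4, 473.4, 385.3 and 317.2 CPM and proximal tubule-like nuclei 217.6, 203.3, 169.9 and 203.2 CPM. The ranges of these 4 classes did not overlap over the libraries. Intercalated cell-like nuclei, at 7.04 to 67.3 CPM, were at the level of endothelium-like nuclei, at 26.9 to 54.9 CPM. Proximal tubule-like nuclei were many and deep, and 52.7, 35.2, 47.7 and 36.5% of the Kl UMIs in kept nuclei lay in them.

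In distal convoluted tubule-like nuclei both MRL/lpr libraries lay below both C57BL/6 libraries, with MRL/lpr over C57BL/6 at 0.76 (0.66 to 0.86) at 6 weeks and 0.87 (0.76 to 1.00) at 10 weeks. In proximal tubule-like nuclei MRL/lpr 10 weeks was the lowest library, at 0.78 (0.71 to 0.86) of MRL/lpr 6 weeks and 0.84 (0.75 to 0.93) of C57BL/6 10 weeks. Within the proximal tubule-like class it was 1.29 to 1.86 times as high in nuclei with 3 or more S1 UMIs as in nuclei with none. In distal convoluted tubule-like nuclei, Kl was seen in 38.0, 53.3, 42.7 and 49.8% of nuclei with Vdr and in 31.8, 33.2, 29.0 and 29.1% of nuclei without. After thinning, MRL/lpr 6 weeks no longer showed this order, at 30.6 and 32.1%, and the other 3 libraries did. The thinned intervals overlapped in C57BL/6 6 weeks and MRL/lpr 10 weeks. They were apart only in C57BL/6 10 weeks, at 53.5% (45.0 to 61.9) and 35.5% (31.0 to 40.3).

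Slc34a1, the main brush border phosphate transporter, was seen in nearly every proximal tubule-like nucleus: 97.8, 98.4, 98.8 and 96.7% held a UMI. Its level there was 6669 (6595 to 6743), 9421 (9320 to 9523), 9148 (9056 to 9242) and 9373 (9273 to 9475) CPM. MRL/lpr 6 weeks was the low library and the other 3 lay within 9148 to 9421 CPM. The strain ratio at 6 weeks was 0.71 (0.70 to 0.72), against 0.98 (0.96 to 0.99) at 10 weeks, and 10 over 6 weeks was 1.37 (1.35 to 1.39) in MRL/lpr and 0.99 (0.98 to 1.01) in C57BL/6. The same library thus held the least Cyp27b1 and the least Slc34a1. The 6-week strain ratio was 0.72 (0.71 to 0.74) among nuclei with 3 or more S1 UMIs, so it was as large within the early subset.

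Along the proximal tubule Slc34a1 had a shallow slope. It was at 7382, 10240.0, 9715 and 10776 CPM with 3 or more S1 UMIs, and at 5665, 7417, 7728 and 6870.1 CPM with none. Nuclei with an S3 UMI and no S1 UMI, of which there were 150, 119, 155 and 205, held 3544, 4426, 4426 and 2847 CPM. The other tubule classes, podocyte-like and endothelium-like nuclei of every library lay between 409.7 and 758.3 CPM, and the ranges of neighbouring classes overlapped from endothelium-like to podocyte-like nuclei. The endothelium-like level, 556.1 to 687.3 CPM, was 5.93 to 10.3% of the proximal tubule-like level. Levels of Slc34a1 outside the proximal tubule-like class overlapped this background and are not read as expression.

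Slc34a3, the other brush border transporter, was at 167.9, 165.1, 161.2 and 123.7 CPM in proximal tubule-like nuclei. Here C57BL/6 10 weeks was the low library. The strain ratio at 6 weeks was 1.02 (0.91 to 1.13), against 1.30 (1.15 to 1.47) at 10 weeks, and 10 over 6 weeks was 0.96 (0.86 to 1.07) in MRL/lpr and 0.75 (0.66 to 0.85) in C57BL/6. Divided by S1 UMIs, Slc34a3 was higher in MRL/lpr at both ages. At 6 weeks the strain ratio was 1.14 (1.01 to 1.29) with 3 or more S1 UMIs, 1.68 (1.19 to 2.41) with 1 or 2 and 1.88 (1.14 to 3.22) with none, and at 10 weeks it was 1.19 (1.04 to 1.36), 1.64 (1.13 to 2.41) and 2.95 (1.48 to 6.26). MRL/lpr 6 weeks also had the smallest share of nuclei with 3 or more S1 UMIs, as given above. Both MRL/lpr libraries held fewer S1 UMIs per nucleus in that subset, so the subsets are not like for like between strains. The part of this in the strain ratios of Slc34a3 was not tested. In the other tubule classes and in podocyte-like and endothelium-like nuclei the CPM of Slc34a3 ran from 0 to 40.3, the highest being endothelium-like nuclei of MRL/lpr 10 weeks on 6 UMIs.

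This transporter, like Cyp24a1, was far lower in nuclei without S1 UMIs. It was at 262.4, 229.8, 232.7 and 195.9 CPM with 3 or more S1 UMIs, at 161.8, 96.5, 138.7 and 84.8 CPM with 1 or 2, and at 47.3, 25.2, 31.9 and 10.8 CPM with none. The ratio of the first to the last was 5.54 (4.33 to 7.19), 9.13 (5.91 to 14.9), 7.29 (5.13 to 10.7) and 18.1 (10.2 to 35.3). Nuclei with Slc34a3 held Cyp24a1 more often than the rest, in 18.2, 9.13, 13.2 and 16.8% against 8.66, 5.68, 7.37 and 7.91%. After thinning the summed shares were 9.36% (7.80 to 11.1) and 5.12% (4.78 to 5.47). By library, the thinned intervals were apart in both MRL/lpr libraries and overlapped in both C57BL/6 libraries. As before, the genes' shared position is contained in these shares.

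Slc20a2, which encodes a sodium-phosphate cotransporter found in many cell types, was at 133.5, 124.7, 163.3 and 147.1 CPM in proximal tubule-like nuclei. Both 10-week libraries lay above both 6-week libraries, with 10 over 6 weeks at 1.22 (1.10 to 1.37) in MRL/lpr and 1.18 (1.04 to 1.34) in C57BL/6. Distal convoluted tubule-like nuclei held it at 81.9, 131.9, 68.9 and 117.5 CPM, on 31, 81, 22 and 71 UMIs. There both MRL/lpr libraries lay below both C57BL/6 libraries, at ratios of 0.62 (0.40 to 0.95) at 6 weeks and 0.59 (0.35 to 0.96) at 10 weeks. Endothelium-like nuclei held 24.3 to 40.3 CPM. Along the proximal tubule its ratio of nuclei with 3 or more S1 UMIs over those with none was 1.00 (0.83 to 1.22), 0.90 (0.72 to 1.14), 1.24 (1.02 to 1.51) and 0.96 (0.79 to 1.17), so only in MRL/lpr 10 weeks did the interval leave out 1.

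Xpr1, the exporter gene, was counted in every class. It was at 247.7, 271.6, 262.5 and 289.4 CPM in proximal tubule-like nuclei, above the connecting tubule and principal cell-like range of 187.0 to 244.2 CPM. The remaining tubule classes lay between 112.0 and 190.2 CPM. Endothelium-like nuclei held 100.7 to 145.4 CPM, which is 38.4 to 53.5% of the proximal tubule-like level and a larger part than for the other 7 genes. MRL/lpr over C57BL/6 in proximal tubule-like nuclei was 0.91 at both ages (0.84 to 0.99 at 6 weeks and 0.83 to 0.99 at 10 weeks). With the endothelium-like level taken off, the 6-week log2 ratio changed from -0.13 to 0.18, so its direction hangs on that level. Whether that level is free RNA or RNA of the endothelium-like nuclei themselves was not tested. Those nuclei were also shallower, so the subtraction may take off too much. Xpr1 was 1.31 to 1.49 times as high in nuclei with 3 or more S1 UMIs as in those with none.

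The 8 genes were set beside all genes of the proximal tubule-like class. The 11972 genes that reached 50 UMIs in the sum of this class over the 4 libraries include all 8, and 9.0% of them were at least 2-fold apart between the strains at 6 weeks and 11.0% at 10 weeks. Between the ages 5.06% were at least 2-fold apart in MRL/lpr and 4.73% in C57BL/6. Of the 8 genes, 1 was at least 2-fold apart at 6 weeks, 0 at 10 weeks, 1 with age in MRL/lpr and 1 with age in C57BL/6, and it was Cyp27b1 each time. Since Cyp27b1 was selected with its counts known, nothing is read from these numbers. The median log2 ratio of the 8 genes was 0.06, -0.10, 0.01 and 0.05 in these 4 comparisons, and that of all genes was -0.01, 0.06, 0.02 and -0.06. The comparisons share libraries and are not independent.

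**Figure D4:**
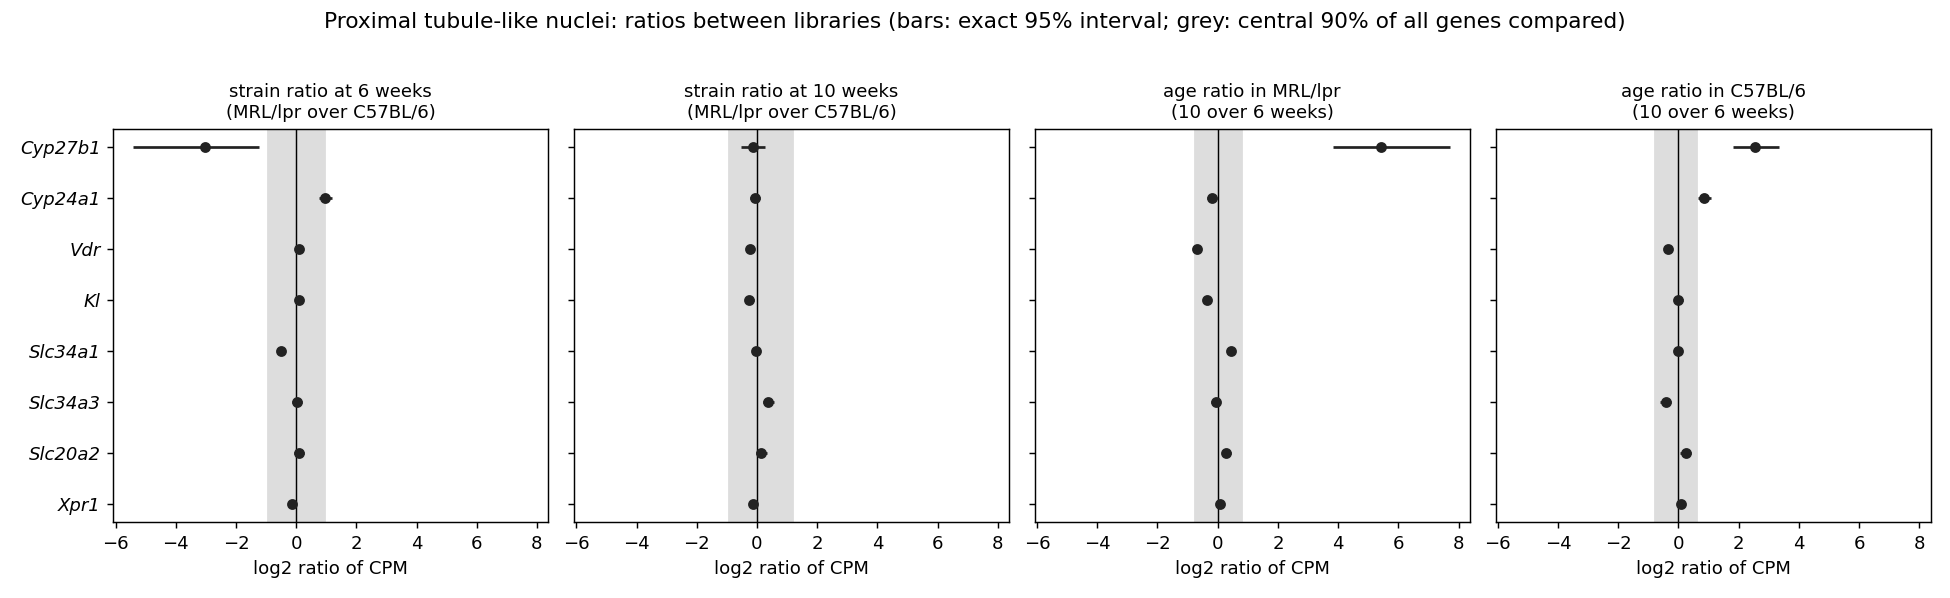
Log2 ratios of CPM in proximal tubule-like nuclei for the 8 genes in 4 comparisons, with exact 95% intervals from counts; the grey band holds the central 90% of all genes compared. Cyp27b1 lies outside the band at -3.01, 5.42 and 2.53 and inside it at -0.13, and Cyp24a1 lies at its upper edge in the 6-week strain comparison and beyond it with age in C57BL/6.

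Of the 8 genes, 5 reached 50 UMIs in distal convoluted tubule-like nuclei, and none of these was at least 2-fold apart. Among 7320 genes there, 7.75% were at least 2-fold apart between strains at 6 weeks, 9.97% at 10 weeks, 7.06% with age in MRL/lpr and 3.1% with age in C57BL/6.

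The other genes of the pathway were taken from lists set by name. Vitamin D reaches the enzyme through uptake of its binding protein by megalin, cubilin (Cubn), amnionless (Amn) and the adaptor Dab2, and Cyp27a1 is one of the 25-hydroxylases. Of 7 genes of uptake and activation, 6 had at least 50 UMIs in proximal tubule-like nuclei and 0 were at least 2-fold apart in any of the 4 comparisons. Their median log2 ratios were 0.09 and 0.32 between strains at 6 and 10 weeks, and -0.17 and -0.12 with age in MRL/lpr and C57BL/6. Cubn was at 524.1, 503.6, 798.2 and 532.1 CPM, highest in MRL/lpr 10 weeks. Cyp27a1 was at 97.1, 147.5, 139.7 and 104.8 CPM, so that MRL/lpr over C57BL/6 at 6 weeks was 0.66 (0.58 to 0.75), against 1.33 (1.17 to 1.52) at 10 weeks.

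The seventh gene of that list, Cyp2r1, encodes a vitamin D 25-hydroxylase and is named here after its values were seen. It had 2, 16, 1 and 28 UMIs in proximal tubule-like nuclei, or 0.423, 4.55, 0.244 and 7.89 CPM.

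Of 9 receptor partners, 7 were counted and 0 were at least 2-fold apart in proximal tubule-like nuclei. Rxra, a partner with which the vitamin D receptor binds DNA, was at 16.9, 27.3, 17.6 and 25.9 CPM, lower in both MRL/lpr libraries, at ratios of 0.62 (0.45 to 0.84) and 0.68 (0.49 to 0.93). Rxrb, a second such partner, was at 33.8, 30.2, 32.7 and 36.1 CPM. In distal convoluted tubule-like nuclei MRL/lpr at 6 weeks was 2-fold or more below C57BL/6 for 2 of 6, Rxrb on 9 against 30 UMIs and Smarca4 on 18 against 62. Over all genes there, 7.75% were at least 2-fold apart in that comparison. In the other comparisons of this class 0 of the 6 were, and counts this small are no result about the list.

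Among the 12 genes of FGF23 and parathyroid hormone signalling and of the transporter scaffold, 1 and 2 were at least 2-fold apart between strains at 6 and 10 weeks, and 1 and 0 with age in MRL/lpr and C57BL/6. Over all genes the shares were 9.0, 11.0, 5.06 and 4.73%, and counts this small are no result about the list. Fgfr4, an FGF receptor gene, was at 169.2, 65.2, 200.5 and 93.3 CPM in proximal tubule-like nuclei, with MRL/lpr over C57BL/6 at 2.60 (2.24 to 3.02) and 2.15 (1.89 to 2.45). Fgfr1 was at 57.1, 43.3, 55.7 and 59.7 CPM, with C57BL/6 6 weeks the low library. Pth1r, the parathyroid hormone receptor gene, was at 293.6, 315.1, 285.9 and 341.8 CPM, and Pdzk1, a scaffold gene of the brush border, at 652.5, 596.7, 708.6 and 757.0 CPM. Sgk1, a kinase gene induced by steroid hormones, was at 299.5, 401.1, 32.7 and 415.7 CPM, so MRL/lpr 10 weeks stood far below the other 3 libraries.

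A list of other phosphate genes held 7 symbols, of which 6 were in the matrices. Not all are transporter genes, since Enpp1 encodes an enzyme. Of these, 5 were counted in proximal tubule-like nuclei and 0 were at least 2-fold apart. Slc17a1 was at 610.0, 435.3, 354.8 and 601.1 CPM, so that the strain order differed between ages, at 1.40 (1.32 to 1.49) and 0.59 (0.55 to 0.63). Slc20a1, the close relative of Slc20a2, was at 33.8, 41.0, 42.7 and 40.6 CPM. Fdx1 encodes the ferredoxin that passes electrons to mitochondrial P450 enzymes such as those of Cyp27b1 and Cyp24a1. It was at 37.2, 56.6, 26.9 and 47.3 CPM, lower in both MRL/lpr libraries, at 0.66 (0.53 to 0.81) and 0.57 (0.44 to 0.73). Fdxr, the gene of the reductase that feeds this ferredoxin, was at 13.3, 11.4, 15.6 and 7.33 CPM, and at 10 weeks MRL/lpr exceeded C57BL/6 by 2.13 times (1.33 to 3.51), the opposite direction.

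Distal genes that carry calcium were described in the class where Vdr was highest. Of 8 genes, 7 had at least 50 UMIs in distal convoluted tubule-like nuclei, with median log2 ratios of 0.37 with age in MRL/lpr and 0.26 in C57BL/6. With age, 7.06 and 3.1% of all genes there were at least 2-fold apart in either direction. Of the 7, 1 was at least 2-fold higher with age in both strains. That gene, Trpv5, encodes the apical calcium channel and had 9, 19, 23 and 47 UMIs, or 23.8, 30.9, 72.1 and 77.8 CPM. Its ratios of 10 over 6 weeks were 3.03 (1.35 to 7.45) and 2.51 (1.45 to 4.54). Calb1, which encodes the calcium buffer calbindin, was at 2319, 2026, 3177 and 3069 CPM, at age ratios of 1.37 (1.251 to 1.502) and 1.51 (1.41 to 1.63). Connecting tubule and principal cell-like nuclei did not show a rise with age in both strains. There the list's median log2 age ratio was -0.12 in MRL/lpr, with 3 genes higher and 4 lower, and 0.50 in C57BL/6, with 7 higher.
S100g, another calcium-binding protein gene, was at 1048, 1536, 1260.0 and 2377 CPM in distal convoluted tubule-like nuclei. It was also at 202.2, 471.8, 127.5 and 418.0 CPM in endothelium-like nuclei, lower in both MRL/lpr libraries as in the distal class. With age the endothelium-like level fell in both strains, whereas the distal convoluted tubule-like level rose. Whether the endothelium-like level is free RNA was not tested.

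**Figure D5:**
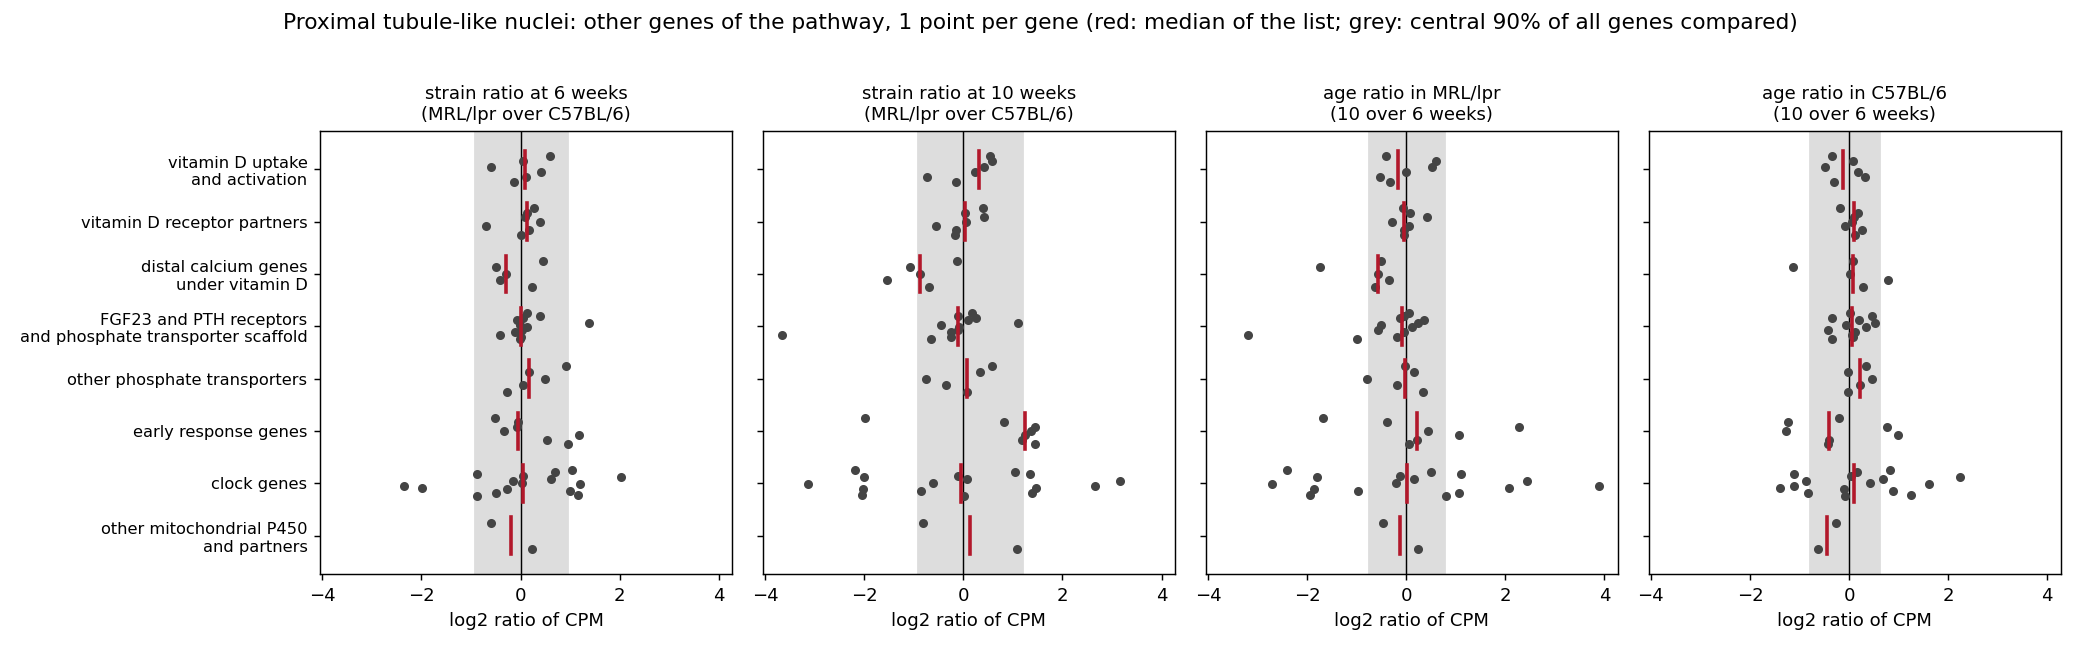
Log2 ratios of CPM in proximal tubule-like nuclei for the genes of 8 lists that reached 50 UMIs in all, 1 point per gene, with the list median in red and the central 90% of all genes compared in grey. Clock genes lie on both sides of the band in every comparison, and Fgfr4 lies beyond the band in the 6-week strain comparison and inside it in the 10-week one.

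Genes of the daily clock set the libraries apart in the same nuclei. Of 17 clock genes, 16 were counted in proximal tubule-like nuclei, and 7 and 11 were at least 2-fold apart between strains at 6 and 10 weeks, and 10 and 6 with age in MRL/lpr and C57BL/6, beside 9.0, 11.0, 5.06 and 4.73% of all genes. Arntl, a core activator, was at 160.1, 78.3, 30.3 and 138.1 CPM, and Dbp, a clock output gene, at 12.1, 13.4, 65.4 and 7.33 CPM. The labels give no hour of collection. Mitochondrial transcripts summed to 2800, 2138, 1025 and 2303 CPM in these nuclei, lowest in MRL/lpr 10 weeks. Summed levels of the other panels in proximal tubule-like nuclei were 236.5, 416.5, 237.1 and 317.3 CPM for the distal convoluted tubule panel, 207.9, 207.0, 107.4 and 162.6 CPM for the endothelium panel and 85.9, 41.8, 64.9 and 49.6 CPM for the immune panel. The immune panel was highest in MRL/lpr 6 weeks, the library lowest for Cyp27b1 and Slc34a1. At least 12 of the 13 immune markers were above 0 in each library. Early response genes, which signalling or handling can induce, also set the libraries apart: of 7 counted in proximal tubule-like nuclei, 1 and 6 were at least 2-fold apart between strains at 6 and 10 weeks, and 3 and 2 with age in MRL/lpr and C57BL/6, beside the same 9.0, 11.0, 5.06 and 4.73% of all genes. Their median log2 strain ratio at 10 weeks was 1.25, with 5 higher and 1, Dusp1, lower in MRL/lpr. Etv5 was at 43.4, 54.9, 59.1 and 22.8 CPM and Dusp1 at 156.9, 225.5, 49.1 and 194.7 CPM. The part of the clock, of early response, of mitochondrial RNA and of these other cells in the differences above was not tested.

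Across 20 sums, 5 tubule classes by 4 libraries, the genes whose log2(CPM + 10) followed each of the 8 most closely were found among 12886 genes. They share libraries and depth, and Pearson's r is given as a description. For Cyp27b1 they were Gm42375 (0.93), Ces2g (0.90) and Slc13a4 (0.90), each with 51 to 61 UMIs. For Cyp24a1 they were Sod3 (0.96), Slc22a6 (0.94) and Akr7a5 (0.94), and for Vdr Pdlim1 (0.88), Fgf13 (0.85) and Slc12a3 (0.85). Slc22a6 and Slc12a3 are themselves markers used to define the classes. Kl was followed by Plpp3 (0.90), Arhgap29 (0.89) and Itga1 (0.89). Slc34a1 was followed by Gm15401, Cubn and Cyp2j5 (0.99 each), and Slc34a3 by Ndel1 (0.96), Acy3 (0.95) and Rdh16f2 (0.94). Slc20a2 was followed by Lrriq3 (0.87), Nrxn2 (0.84) and Gm42791 (0.81), and Xpr1 by Chd3 (0.91), Trim7 (0.90) and Dpp4 (0.89).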

How the data were processed

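Nuclei of 4 libraries, 1 per strain and age, were profiled with the Chromium Next GEM Single Cell 3' kit v3.1 after an iodixanol gradient, per the labels' protocols. The deposited matrices hold counts of UMIs per gene and barcode made with Cell Ranger, whose version is 5.0.0 per the file headers, while the submitters' processing notes name 3.1.0. Not given in the sources used here: the genome build, how barcodes were called, and the use of intronic reads. The genes and lists were chosen with earlier results of these data known.

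Barcodes with under 200 genes or over 10% mitochondrial UMIs were removed. Scrublet marked doublets in scanpy 1.11.5 at an expected 0.8% per 1000 barcodes. Its own threshold found too few in MRL/lpr 6 weeks, and the barcodes with the highest scores were taken there at that rate. This removed 702, 862, 473 and 751 barcodes. A nucleus took the class of the panel with most UMIs, if it held at least 4 of them from at least 2 markers and at least 2 times the UMIs of all other panels together. These limits were chosen after looking at the data. In the proximal tubule-like class 68 to 185 nuclei per library lay at the minimum of 4 and 56 to 103 under 3 times the other panels. In all, 1070, 1596, 1292 and 1214 nuclei stayed unassigned.

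UMIs were summed per class and library and scaled to CPM, with exact Poisson intervals. Shares have exact Clopper-Pearson intervals and ratios conditional exact binomial intervals, all at 95%. They were run on simulated counts drawn from the same model that the intervals assume. That simulation held no clumping of UMIs within nuclei and no spread between libraries, so it cannot show how well the intervals cover these data. A count of 0 allows up to 3 UMIs. Genes that reached 50 UMIs in a class, summed over the libraries, were compared, and a gene was called at 2-fold. The genes named are, by rule, all 8 members, list genes with at least 50 UMIs in the proximal or distal convoluted tubule-like class, and the 3 genes most like each member; Cyp2r1, with fewer UMIs, was added after its values were seen. The main values hold no correction for free RNA. Alternatives were scaling by TMM (edgeR 4.0.16) and by DESeq2 1.42.0 size factors, other class and barcode rules, no doublet removal, thinning, and subtraction of the endothelium-like level.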

Additional observations from a re-analysis of the deposited data

Results flagged for a closer look

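Some ratios lay on opposite sides of 1 in the paired strains or ages, each with a counting interval that left out 1. With 1 library per group the differences themselves were not tested. Cyp24a1 in proximal tubule-like nuclei had a ratio of 10 over 6 weeks of 0.882 in MRL/lpr and 1.82 in C57BL/6. Vdr in proximal tubule-like nuclei had a ratio of MRL/lpr over C57BL/6 of 1.075 (1.0008 to 1.154) at 6 weeks and 0.8605 (0.788 to 0.939) at 10 weeks. The 6-week interval only just left out 1. Among these nuclei, those with no S1 UMI did not show opposite directions. Their ratios were 0.87 (0.75 to 0.997) at 6 weeks and 0.79 (0.68 to 0.93) at 10 weeks. With 3 or more S1 UMIs the ratios were 1.21 (1.10 to 1.33) and 0.89 (0.79 to 1.01). With 1 or 2 they were 1.14 (0.94 to 1.38) and 0.90 (0.73 to 1.12). In distal convoluted tubule-like nuclei the strain ratio of Vdr was 0.838 at 6 weeks and 1.58 at 10 weeks, and 10 over 6 weeks gave 1.29 in MRL/lpr and 0.687 in C57BL/6. Slc34a1 did the same in classes where it was at the free RNA level. Its strain ratio at 6 and 10 weeks was 0.727 and 1.43 in thick ascending limb-like nuclei and 0.719 and 1.51 in distal convoluted tubule-like nuclei, where 10 over 6 weeks gave 1.78 in MRL/lpr and 0.851 in C57BL/6. With only nuclei of at least 500 genes, the last changed sign, from a log2 value of -0.23 to 0.41, and the opposite directions were lost.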

How the results depend on the processing

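In proximal tubule-like nuclei, Cyp27b1 kept its direction under every alternative in the 6-week strain comparison (log2 from -3.05 to -2.49) and with age (5.002 to 5.47 in MRL/lpr, 2.53 to 2.76 in C57BL/6); at 10 weeks it ran from -0.36 to 0.15. The 6-week strain ratio of Slc34a1 ran from -0.57 to -0.48, that of Cyp24a1 from 0.88 to 1.09, and the age ratio of Vdr from -0.93 to -0.64 in MRL/lpr and from -0.41 to -0.29 in C57BL/6. With the endothelium-like level subtracted, 2 of the 8 genes in place of 1 were at least 2-fold apart between strains at 6 weeks, and 2 with age in C57BL/6. Without the filter on low counts the share of all genes at least 2-fold apart was 16, 17.7, 11.4 and 11.1% in place of 9.0, 11.0, 5.06 and 4.73%; more genes with few UMIs are then compared. Asking for 2 UMIs of each gene left 18 nuclei with Cyp27b1, of which 0% (0 to 18.5) held Cyp24a1, against 2.16% of the rest. These are too few nuclei to compare the shares. Values of distal convoluted tubule-like nuclei moved more: Xpr1 there ran up to 4.00 (log2, strains at 6 weeks) with the endothelium-like level subtracted, since both are close. Depth limits Cyp27b1 most, at 3 UMIs in MRL/lpr 6 weeks. No paired analysis was possible because each group has 1 library and the labels give no replicate pairs.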
